A study of Mus musculus with 12 samples.

Results

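The genes described here are 10 neutrophil genes of the mouse: S100a8, S100a9, Ngp, Camp, Ltf, Elane, Mpo, Retnlg, Ly6g and Mmp8. They were taken by gene symbol from per-library expression files that list 40840 genes, and all 10 were found. They were chosen with earlier results of these data known. All 10 also passed the filter on low values (above the lowest value in at least 3 libraries), as did 19498 genes in all.

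The libraries held total RNA of the liver immune cell fraction, which the labels call hepatic macrophages, from 12 mice. The study's methods describe male mice, 8 to 10 weeks old when the diet began, of which some stayed on normal chow diet (NCD) and some were switched to high fat diet (HFD) for 12 weeks. The 4 groups of 3 mice were wild-type C57BL/6 mice (C57BL/6J in the study's methods) on NCD (WT-NCD) and on HFD (WT-HFD), and mice of the strain B6.129S4(D2)-Casp4tm1Yuan/J, whose caspase-11 gene is disrupted in every cell, on NCD (Casp11-/- NCD) and on HFD (Casp11-/- HFD). The cells were separated from hepatocytes on a Percoll density step and no sort is described, so neutrophils could be in the fraction. Values are TPM, reads per gene length scaled to a fixed total per library, so levels can be compared between genes. No read counts are given, so depth is unknown. The lowest value in every file is 1.01 TPM, and a gene at this value is called here listed at the floor.

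Several facts of the libraries touch the results. WT-NCD replicate 3 listed 39677 genes over the floor (12940 to 18775 elsewhere), and its log2(TPM + 1) had Pearson r of -0.45 to -0.14 across genes with the other 11 libraries. It held the highest TPM of all 12 libraries for 39% of the genes tested. Protein-coding genes took 15.7% to 42.4% of the TPM in the other 11 libraries, so a TPM also moves with the share taken by noncoding RNA. Their share was 33.9% and 37.8% in WT-NCD replicates 1 and 2 and 24.5%, 15.7% and 25.2% in WT-HFD. It was 36.7%, 22.3% and 42.4% in Casp11-/- NCD and 19.3%, 23.4% and 22.9% in Casp11-/- HFD. In TPM as deposited, diet is therefore partly mixed with this share. Casp4, the mouse gene of caspase-11, was at 5.60 to 15.6 TPM in the 6 WT libraries, and the libraries labelled Casp11-/- NCD replicate 3 (15.2 TPM) and Casp11-/- HFD replicate 2 (8.68 TPM) lay inside that range. A TPM does not show which exons were read, so genotypes are given as labelled. The heading of the values labelled Casp11-/- HFD replicate 2 also abbreviates the genotype unlike the other headings. The markers of macrophages that the labels name were present, with 8 Kupffer cell markers summing to 33.3 to 631 TPM. Hepatocyte transcripts remained far more abundant. The 6 hepatocyte markers summed to 7280 to 26318 TPM in the other 11 libraries and to 50.4 in WT-NCD replicate 3. The part of hepatocyte RNA in the values below was not tested.

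Neutrophils are short-lived phagocytes that leave the bone marrow with ready-made granules. The granule proteins are transcribed in turn as the cell matures: first those of the primary (azurophil) granules in promyelocytes, then those of the specific granules, and last those of the gelatinase granules, while a mature neutrophil in blood or tissue keeps little transcript of the earliest ones. S100a8 and S100a9 encode the subunits of calprotectin, a calcium-binding protein that fills the neutrophil cytosol, is also made by monocytes, and signals through Tlr4 and Ager when released. In the liver, neutrophils are few at rest and enter in injury and inflammation.

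In GENCODE vM21 (GRCm38) all 10 genes are protein-coding. S100a8 lies at chr3:90668978-90670035 and S100a9 at chr3:90692632-90695721, while Ngp, Camp, Ltf and Mmp8 are all on chromosome 9. The 250 bases before the RefSeq start of S100a8, S100a9, Ngp and Mpo (GRCm38.p6) are shown because these genes stand for the sets whose levels moved differently between libraries below. The S100a8 window is chr3:90668821-90669070 on the plus strand, and S100a9 lies nearby on the minus strand with its window at chr3:90695722-90695971. The Ngp window is chr9:110419558-110419807 and the Mpo window is chr11:87793534-87793783, both on the plus strand. Each is printed in the direction of the gene.
S100a8: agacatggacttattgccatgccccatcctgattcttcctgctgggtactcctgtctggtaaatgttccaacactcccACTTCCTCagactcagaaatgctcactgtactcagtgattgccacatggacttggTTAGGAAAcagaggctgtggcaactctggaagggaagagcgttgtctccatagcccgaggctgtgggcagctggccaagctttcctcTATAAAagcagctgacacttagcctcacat
S100a9: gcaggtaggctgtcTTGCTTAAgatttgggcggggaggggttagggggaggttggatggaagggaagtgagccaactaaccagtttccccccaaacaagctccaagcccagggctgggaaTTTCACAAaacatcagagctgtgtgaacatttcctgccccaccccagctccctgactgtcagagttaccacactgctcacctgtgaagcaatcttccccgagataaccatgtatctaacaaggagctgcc
Ngp: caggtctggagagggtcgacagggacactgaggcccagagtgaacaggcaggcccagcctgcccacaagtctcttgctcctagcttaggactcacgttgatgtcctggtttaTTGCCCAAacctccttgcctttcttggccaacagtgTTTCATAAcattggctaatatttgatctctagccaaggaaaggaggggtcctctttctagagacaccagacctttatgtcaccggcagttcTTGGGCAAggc
Mpo: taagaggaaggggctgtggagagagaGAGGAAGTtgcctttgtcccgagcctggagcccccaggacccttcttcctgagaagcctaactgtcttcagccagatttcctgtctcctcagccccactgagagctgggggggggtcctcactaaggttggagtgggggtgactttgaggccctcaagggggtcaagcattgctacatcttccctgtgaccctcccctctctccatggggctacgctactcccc
Capitals mark matches, on either strand, to 3 motifs: TTNNGNAA, a C/EBP-type site, TATAAA, the TATA box, and GAGGAAGT, a PU.1-type ETS site. TTNNGNAA was in 36.8% of 32851 promoter windows of this length, TATAAA in 12.4% and GAGGAAGT in 2.44%. S100a8 held all 3 motifs, with the TATA box at positions -30 to -25 before the start. S100a9 held TTNNGNAA at 2 places and Ngp at 3, and neither held the others. Mpo held GAGGAAGT alone, at -224 to -217. A match is a description of letters and not of a bound site.

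S100a8 was the most abundant member in every library but Casp11-/- NCD replicate 1, where Retnlg was. S100a8 measured 534, 406 and 33.9 TPM in the WT-NCD libraries (replicates 1, 2 and 3, as in all lists of values), 158, 152 and 223 in WT-HFD, at 260.5, 156 and 277 in the libraries labelled Casp11-/- NCD, and at 62.8, 2414 and 131 in those labelled Casp11-/- HFD. S100a9 was at 89.5, 72.03 and 25.4 TPM in WT-NCD, at 26.3, 17.2 and 32.5 in WT-HFD, at 31.5, 34.2 and 33.9 in Casp11-/- NCD, and at 9.39, 429 and 30.5 in Casp11-/- HFD. For both genes 1 library, labelled Casp11-/- HFD replicate 2, stood above all others, while the other 2 libraries of its group lay below every Casp11-/- NCD library. WT-NCD replicates 1 and 2 came next and lay above every WT-HFD library, and WT-NCD replicate 3 lay within or below the WT-HFD range. S100a8 averaged 178 ± 39.6 TPM in WT-HFD and 231 ± 65.3 in Casp11-/- NCD, against 869 ± 1338 in Casp11-/- HFD (SD, n = 3 each), where the SD exceeded the mean. In RNA of a whole fraction, fewer neutrophils and less RNA per neutrophil cannot be told apart.

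**Figure D1:**
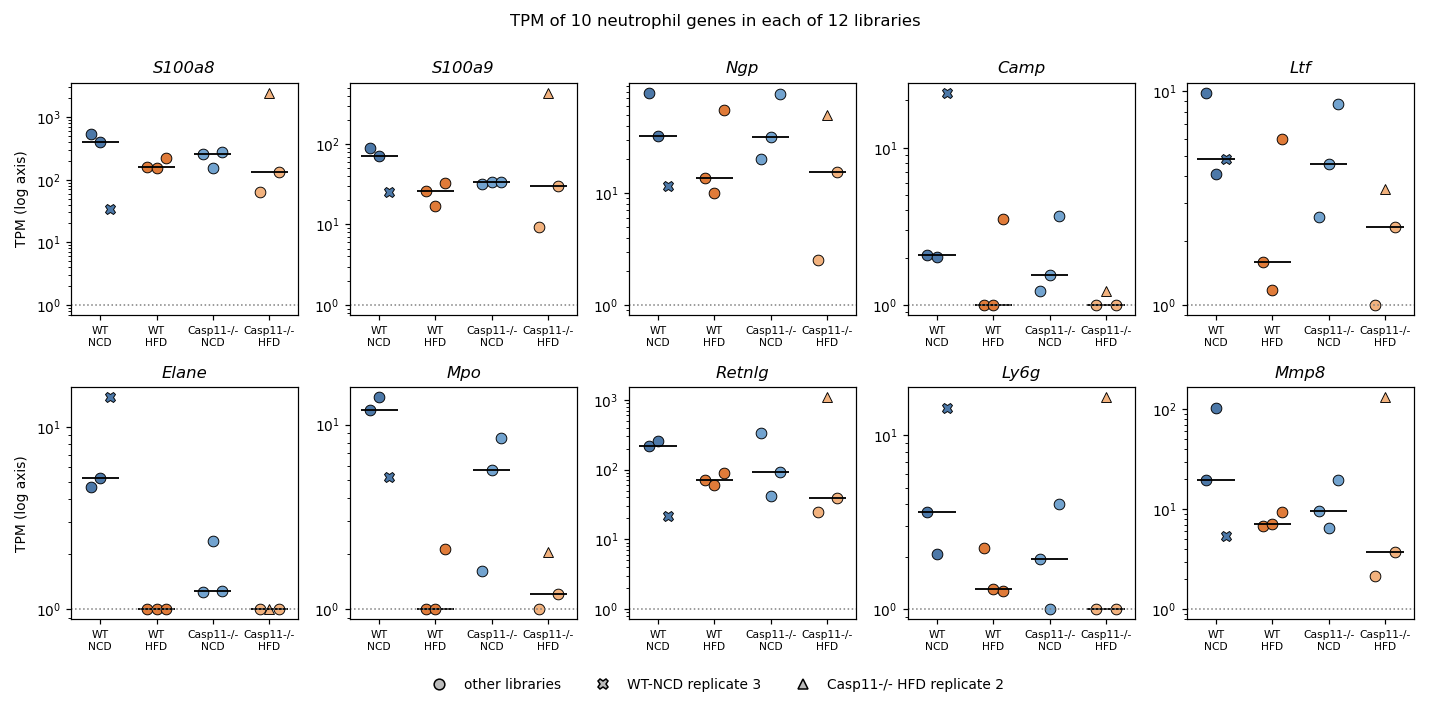
TPM of the 10 genes (log axis) in each library by group, with bars at group medians and a dotted line at the floor of 1.01 TPM. The cross is WT-NCD replicate 3 and the triangle the library labelled Casp11-/- HFD replicate 2, which is highest for S100a8, S100a9, Retnlg, Ly6g and Mmp8 but not for Ngp, Camp, Ltf, Elane or Mpo.

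Retnlg, Ly6g and Mmp8, transcripts of late-stage neutrophils, were also highest in the library labelled Casp11-/- HFD replicate 2, with a second high library for Mmp8 and for Ly6g. Retnlg, a resistin-like secreted protein, was at 219.5, 256 and 21.9 TPM in WT-NCD, at 70.8, 60.5 and 88.6 in WT-HFD, at 332, 41.2 and 91.5 in Casp11-/- NCD, and at 24.3, 1081 and 38.8 in Casp11-/- HFD. Mmp8, the neutrophil collagenase, was at 19.6, 102 and 5.42 TPM in WT-NCD, at 6.82, 7.11 and 9.42 in WT-HFD, at 9.69, 6.45 and 19.4 in Casp11-/- NCD, and at 2.17, 131 and 3.77 in Casp11-/- HFD. WT-NCD replicate 2 and Casp11-/- HFD replicate 2 were therefore the 2 high libraries for Mmp8, and WT-NCD replicates 1 and 2 lay above all WT-HFD libraries for both genes. Ly6g, the surface protein used to recognise mouse neutrophils, was low, at 3.61, 2.09 and 14.2 TPM in WT-NCD, at 2.26, 1.31 and 1.28 in WT-HFD, at 1.94, 1.01 and 4.02 in Casp11-/- NCD, and at 1.01, 16.4 and 1.01 in Casp11-/- HFD. WT-NCD replicate 3 was its second high library. Ly6g belongs to a family of similar genes whose reads can be shared, so its values are less certain.

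Ngp, Ltf and Camp encode specific granule proteins: neutrophilic granule protein, the iron-binding lactoferrin and the antimicrobial cathelicidin. Ngp was at 77.8, 32.2 and 11.5 TPM in WT-NCD, at 13.6, 10.05 and 55.4 in WT-HFD, at 20, 31.4 and 76.7 in Casp11-/- NCD, and at 2.54, 49.97 and 15.3 in Casp11-/- HFD. Ltf was at 9.80, 4.10 and 4.85 TPM in WT-NCD, at 1.60, 1.18 and 6.01 in WT-HFD, at 2.58, 4.58 and 8.75 in Casp11-/- NCD, and at 1.01, 3.51 and 2.32 in Casp11-/- HFD. The diets overlapped for both genes in both genotypes, with WT-HFD replicate 3 inside the range of the NCD libraries. The library labelled Casp11-/- HFD replicate 2 ranked 4th for Ngp and 6th for Ltf among the 11 libraries other than WT-NCD replicate 3. Camp was at 22.2 TPM in WT-NCD replicate 3, at 2.08 and 2.03 in the other WT-NCD libraries, and at 1.01 to 3.68 in the other 9 libraries, of which 4 were at the floor.

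Elane and Mpo encode the primary granule enzymes neutrophil elastase and myeloperoxidase, and both were low in all libraries. Elane was at 4.71, 5.22 and 14.5 TPM in WT-NCD and at 1.24, 2.38 and 1.27 in Casp11-/- NCD, and it was listed at the floor in all 6 HFD libraries. No ratio of TPM is given for Elane against HFD for that reason, and the fitted log2 differences of Elane given below depend on the pseudocount and are not bounds. Mpo was at 11.99, 14.04 and 5.23 TPM in WT-NCD, at 1.01, 1.01 and 2.13 in WT-HFD, at 1.61, 5.72 and 8.505 in Casp11-/- NCD, and at 1.01, 2.04 and 1.21 in Casp11-/- HFD. For Mpo every WT-NCD library lay above every WT-HFD library, and among the libraries labelled Casp11-/- the diets overlapped (1.61 TPM on NCD against 2.04 on HFD). The library labelled Casp11-/- HFD replicate 2 was not raised for either gene.

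The first comparison asks how HFD changed these genes in WT mice. All 10 members had a lower mean log2(TPM + 1) in WT-HFD than in WT-NCD, with a median difference of -1.16 on the log2 scale against -0.51 over all genes tested, and 0 of 10 passed an adjusted p of 0.05 in limma, against 22 of 19498 genes (0.113%). Before adjustment, 2 members had a p under 0.05, Elane and Mpo. The difference of Mpo was -2.20 (SE 0.56, adjusted p = 0.252 in limma), that of Elane -2.03 (SE 0.41, adjusted p = 0.117) and that of S100a8 -0.16 (SE 1.36, adjusted p = 0.96). Elane and Mpo were also the 2 members for which all WT-HFD libraries lay below all WT-NCD libraries, as 13.7% of the genes tested did.

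Without WT-NCD replicate 3, Mpo fell by 2.59 on the log2 scale (SE 0.52, adjusted p = 0.00435 in limma, n = 3 and 2) and Elane fell by 1.57 (SE 0.28, adjusted p = 0.00118 in limma), so 2 of 10 members fell, against 2.04% of 17950 genes called lower. Mpo averaged 13.02 ± 1.44 TPM in the other 2 WT-NCD libraries and 1.38 ± 0.65 in WT-HFD (SD). The differences of Mmp8 (-2.40, SE 0.98), Retnlg (-1.70, SE 0.997), S100a9 (-1.67, SE 0.87), S100a8 (-1.41, SE 0.90), Ngp (-1.29, SE 0.82) and Ltf (-1.12, SE 0.59) had adjusted p of 0.253 to 0.413. Without the library labelled Casp11-/- HFD replicate 2 too, Mmp8 also passed (-2.40, SE 0.63, adjusted p = 0.0304 in limma). That library enters this comparison only through the shared spread. The count was then 3 of 10 members called lower, against 2.02% of 17889 genes. That library was left out for its high values of these genes, so the call of Mmp8 is no independent support for a fall. All WT-HFD libraries lay below both remaining WT-NCD libraries for 6 of 10 members, where 37.3% of the genes tested did. The median difference of the 10 members was -1.49, against -0.27 over all genes. The calls depended on the scaling. With the TPM of protein-coding genes alone set to one common sum in each library, 0 of 10 members passed in limma without WT-NCD replicate 3 (2 at an unadjusted p under 0.05; adjusted p = 0.0632 for Mpo and 0.125 for Elane) and 0 of 10 without both libraries (4 at an unadjusted p under 0.05), while Elane, Mpo and Mmp8 were still lower on HFD. Over 12 libraries this scaling moved the median of the same 12794 protein-coding genes from -0.25 to -0.00, S100a8 turned to 0.16 and the other 9 members kept their direction.

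**Figure D2:**
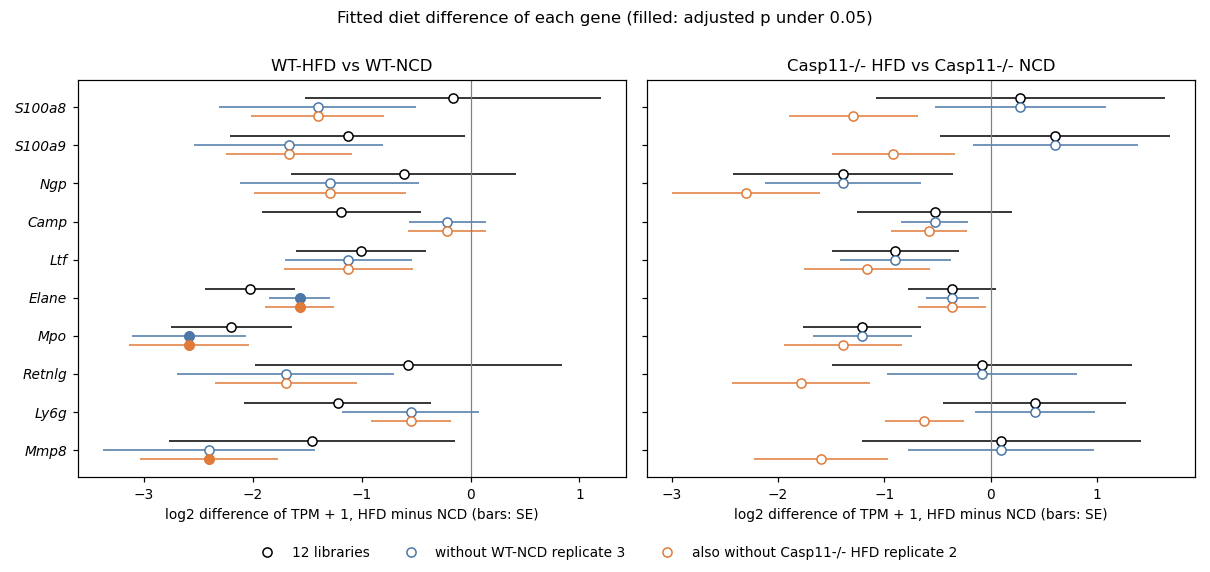
Difference of log2(TPM + 1), HFD minus NCD, of each gene in WT (left) and in libraries labelled Casp11-/- (right), with SE bars, over 12 libraries, without WT-NCD replicate 3, and also without the library labelled Casp11-/- HFD replicate 2; filled points have an adjusted p under 0.05. Filled points are Elane and Mpo in WT without WT-NCD replicate 3, and Mmp8 as well once both libraries are left out, and on the right no point is filled.

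The second comparison asks the same of the mice labelled Casp11-/-. Here 6 of 10 members were lower and 4 were higher on HFD, with a median difference of -0.22 against -0.43 over all genes, and 0 of 10 passed in limma (0 members at an unadjusted p under 0.05), as did 0 of 19498 genes (0%). S100a8 differed by 0.28 (SE 1.36, adjusted p = 0.974 in limma), S100a9 by 0.61 (SE 1.08, adjusted p = 0.922), Ngp by -1.39 (SE 1.04, adjusted p = 0.598) and Mpo by -1.21 (SE 0.56, adjusted p = 0.538). Elane, at the floor in all 3 HFD libraries, was the 1 member with all HFD libraries below all NCD libraries, as 15.1% of the genes tested were, and 0 members had all HFD libraries above. Without WT-NCD replicate 3, whose removal changes only the shared spread here, 0 of 10 passed (1 at an unadjusted p under 0.05) while 198 of 17950 genes (1.1%) did.

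The sign of this comparison rested on 1 library for 4 members. Without the library labelled Casp11-/- HFD replicate 2 as well, all 10 members were lower on HFD, with a median of -1.23 against -0.50 over all genes. S100a8 moved from 0.28 to -1.29, S100a9 from 0.61 to -0.92, Mmp8 from 0.10 to -1.60 and Ly6g from 0.42 to -0.62. For 9 of 10 members, all but Ly6g, the 2 remaining HFD libraries then lay below all 3 NCD libraries, as for 18.2% of the genes tested. Still 0 of 10 passed in limma (5 at an unadjusted p under 0.05), against 98 of 17889 genes (0.548%). That library was left out because these same genes were high in it, so the values without it describe the remaining libraries and are no independent support for a direction.

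The genotypes were then compared within each diet, which asks whether caspase-11 deficiency went with another level of these genes. On NCD, 7 of 10 members were lower in the libraries labelled Casp11-/- than in WT-NCD, with a median of -0.83 against 0.04 over all genes, and 0 of 10 passed in limma (1 at an unadjusted p under 0.05), as did 0 of 19498 genes (0%). Elane alone had no overlap between these groups, as 1.27% of the genes tested did in this direction. Without WT-NCD replicate 3, all 10 members were lower, with a median of -1.09 against 0.08, and 0 of 10 passed (2 at an unadjusted p under 0.05), against 10 of 17950 genes (0.0557%). The 3 libraries labelled Casp11-/- NCD then lay below both WT-NCD libraries for 5 of 10 members, S100a8, S100a9, Elane, Mpo and Mmp8, against 2.57% of the genes tested. Without the library labelled Casp11-/- HFD replicate 2 too, the count was again 0 of 10 (4 at an unadjusted p under 0.05), against 0.0559% of the genes. These comparisons share the WT-NCD libraries with the WT diet comparison.

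On HFD, Casp11-/- exceeded WT in the mean of 6 of 10 members and was below it for 3, and Elane was at the floor in both groups. The median was 0.26 against -0.02 over all genes. In limma 0 of 10 passed (0 at an unadjusted p under 0.05), as did 0% of the genes with 12 libraries and 0% without WT-NCD replicate 3, and for 0 of 10 members did the groups not overlap, against 2.87% of the genes with all Casp11-/- HFD libraries below. Without the library labelled Casp11-/- HFD replicate 2, all members but Elane were lower. S100a8, Retnlg, Ly6g and Mmp8 then lay below all WT-HFD libraries (4 of 10 members against 4.94% of the genes). In this setting 0 of 10 passed (1 at an unadjusted p under 0.05), as did 0% of the genes. That library was left out for its high values of these same genes, so this order is no independent support for a direction. The interaction of diet and genotype, the test of whether the diet differences differed, passed for 0 of 10 members over 12 libraries (1 at an unadjusted p under 0.05, 0% of the genes called), for 0 of 10 without WT-NCD replicate 3 (0.00557% of the genes) and for 0 of 10 without both libraries (0% of the genes).

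Averaged over both genotypes, HFD was compared with NCD in 6 libraries each. Over 12 libraries 9 of 10 members were lower, with a median of -0.77 against -0.61 over all genes, and 0 of 10 passed in limma (3 at an unadjusted p under 0.05), against 108 of 19498 genes (0.554%). Elane was the 1 member with every HFD library below every NCD library, as 2.41% of the genes were. Without WT-NCD replicate 3, Mpo fell by 1.90 (SE 0.35, adjusted p = 0.0010 in limma) and Elane fell by 0.97 (SE 0.19, adjusted p = 0.00164), so 2 of 10 members fell where 17.3% of 17950 genes were called lower, a share close to that of the members. With protein-coding genes rescaled as well, Mpo alone passed (-1.69, adjusted p = 0.0137 in limma). Without both libraries 7 of 10 members passed, all lower: S100a8, S100a9, Ngp, Elane, Mpo, Retnlg and Mmp8, with adjusted p of 0.00107 (Mpo) to 0.0424 (S100a8), against 9.4% of 17889 genes called lower. The second library was left out for its high values of these genes, and with protein-coding genes rescaled as well the count was 2 of 10.

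The 10 genes did not vary as 1 block, though the distance of S100a8 from the specific and primary granule genes rested largely on 1 library. Over the 11 libraries without WT-NCD replicate 3, S100a8 and S100a9 had a Pearson r of 0.97 on log2(TPM + 1), S100a8 and Retnlg 0.93, and S100a8 and Ly6g 0.91. The specific granule genes Ngp and Ltf had r of 0.93, and the primary granule genes Elane and Mpo 0.87. S100a8 had lower r with genes of the other sets, at 0.69 with Ngp, 0.37 with Mpo and 0.21 with Camp. Between specific and primary granule genes r ran from 0.26 for Camp and Elane to 0.80 for Ltf and Mpo, and the latter exceeded the 0.74 of Ngp and Camp within the specific granule set. Without the library labelled Casp11-/- HFD replicate 2, S100a8 had r of 0.84 with Ngp, 0.77 with Mpo and 0.56 with Camp. Its r was then 0.92 with S100a9, 0.87 with Retnlg and 0.73 with Ly6g, so Ly6g was no longer closer to S100a8 than Ngp and Mpo were. Between specific and primary granule genes r then hardly moved, at 0.24 for Camp and Elane and 0.80 for Ltf and Mpo. Between late-stage and granule genes it was 0.56 with and without that library for Retnlg and Ngp, but other pairs rose without it. Those were Ly6g and Camp (0.10 to 0.50), Ly6g and Mpo (0.20 to 0.61) and Retnlg and Elane (0.26 to 0.56), among others. These are descriptions over libraries that share diets, genotypes and one TPM scale, with no test.

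The ratio of S100a8 to S100a9 was narrow. It ran from 4.30 to 8.86 in 11 libraries, with 5.63 in the library labelled Casp11-/- HFD replicate 2, and was 1.34 in WT-NCD replicate 3. The ratio of S100a8 to Ngp was 48.3 in the library labelled Casp11-/- HFD replicate 2, against 3.61 to 24.7 in the other 10. In that library the calprotectin transcripts were at their highest while Ngp was inside the range of the other libraries.

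**Figure D3:**
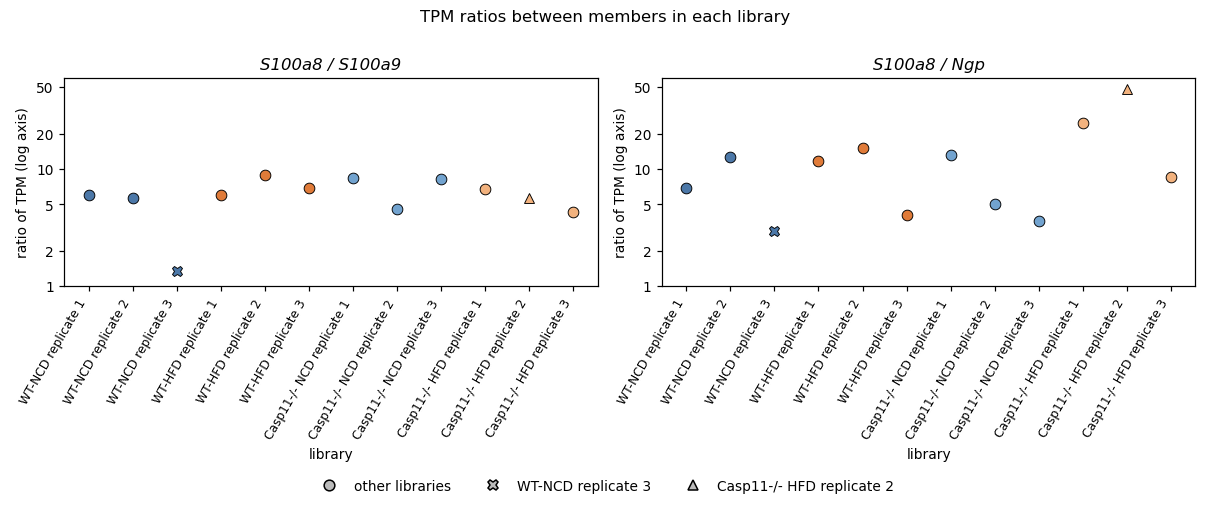
Ratio of TPM (log axis) of S100a8 to S100a9 (left) and to Ngp (right) in each of the 12 libraries. The left ratio lies between 4.30 and 8.86 except in WT-NCD replicate 3 (cross, 1.34), and the right ratio is highest, at 48.3, in the library labelled Casp11-/- HFD replicate 2 (triangle).

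Among all genes tested, the 5 closest to S100a8 over 11 libraries were S100a9 (r = 0.97), Stfa2l1 (0.95), Cstdc4 (0.94), Retnlg (0.93) and Cd300lf (0.92). Stfa2l1 and Cstdc4 are stefin A-type protease inhibitors of a family of near-identical copies, which can share reads. For S100a9 they were S100a8, Lcn2, Mxd1, Cd300lf and Stfa2l1, at 0.97 to 0.91, where Lcn2 encodes the iron-siderophore binding protein lipocalin 2. For Ngp they were Ltf (0.93), Gm16214 (0.90), Gm41590 (0.88), E030018B13Rik (0.87) and Il6 (0.86). The list of S100a8 is made of transcripts that peaked in the library labelled Casp11-/- HFD replicate 2, while Ltf, Il6 and the others near Ngp did not peak there. The ranking included that library, so this difference follows largely from the ranking. Without it, r was 0.80 to 0.92 for the 5 genes near S100a8 and 0.87 to 0.95 for the 5 near Ngp.

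Other neutrophil genes were grouped in 3 lists, and some of them were also high in that library. Of 14 mature neutrophil genes, 10 had their highest TPM of 11 libraries there, as did 4 of 12 other specific and gelatinase granule genes, 5 of the 10 members and 0 of 6 other primary granule and promyelocyte genes, against 294 of 19498 genes (1.51%). That library was singled out for its high values of the members, so their count is no independent support. Among the 10 mature neutrophil genes, Fpr1 was close to a tie (47.0 TPM against 46.0 in the next library). Of the 6 primary granule and promyelocyte genes only 4 were over the floor in any of these 11 libraries and 3 entered the fit, so their count of 0 says little. Cxcr2, the receptor that guides neutrophils to chemokines, was at 117 TPM there and at 4.35 to 18.0 in the other 10 libraries. Il1r2, the interleukin 1 decoy receptor, was at 58.5 TPM against at most 18.9, and Lcn2 at 186 against at most 63.9. Cxcr2 and Il1r2 were named after their values were seen. Of the mature neutrophil genes, Cxcr4, Ltb4r1, Alox5ap and Fpr2 were not highest there. In all, 27 of 19498 genes (0.138%) reached there at least 3 times the next of these 11 libraries, among them S100a8, S100a9, Retnlg and Ly6g of the 10 members. Outside the lists, and named after their values were seen, the acute-phase genes Saa2 (36.6 TPM against at most 2.11) and Saa1 (14.8 against at most 1.59) were among them. Of 6 hepatocyte markers, 1 had its highest TPM of these 11 libraries there.

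**Figure D4:**
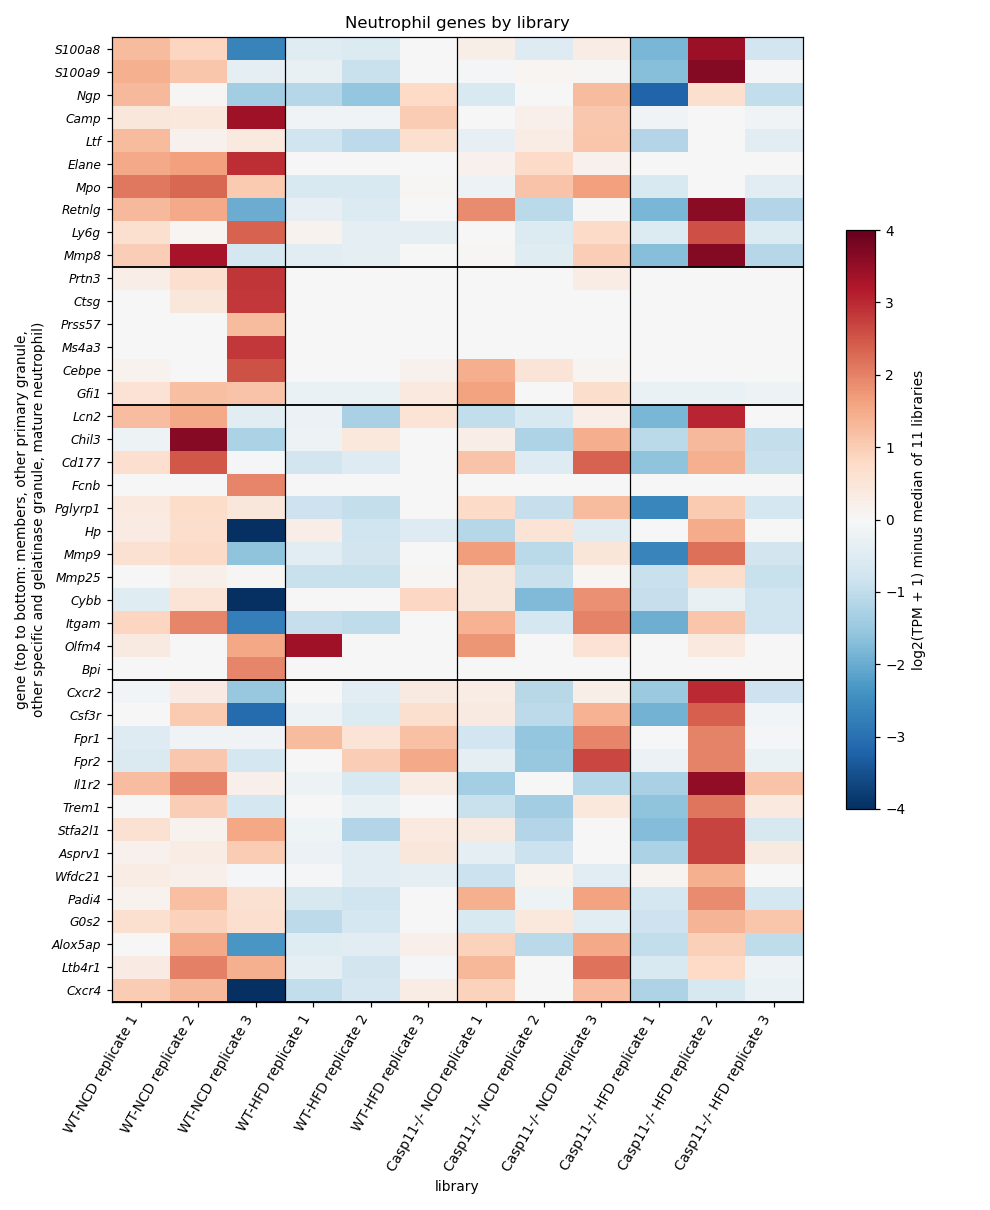
Log2(TPM + 1) of each gene minus its median over the 11 libraries other than WT-NCD replicate 3, for the 10 members and 3 further lists of neutrophil genes (rows, lists parted by lines) in 12 libraries (columns, groups parted by lines). In the column labelled Casp11-/- HFD replicate 2 red is deepest on S100a8, S100a9, Retnlg, Mmp8 and Il1r2, and the 6 other primary granule genes, all at the floor there, are pale.

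Across the diets, 0 genes of these 3 lists or of the lists of chemoattractants and of calprotectin receptors passed in limma in any of the 6 comparisons over 12 libraries, and of their 32 genes tested 0 to 4 had an unadjusted p under 0.05. Without WT-NCD replicate 3, 5 of 31 tested fell on HFD over both genotypes (16.1%), a share close to the 17.3% of all genes. They were Gfi1, a transcription factor of granulocyte precursors (-0.97, SE 0.27, adjusted p = 0.0214 in limma), Cd177 (-1.67, SE 0.53, adjusted p = 0.0341) and Itgam (-1.75, SE 0.50, adjusted p = 0.0251), surface proteins stored in granules, and Cxcr4 (-1.53, SE 0.38, adjusted p = 0.0124) and Ltb4r1 (-1.37, SE 0.43, adjusted p = 0.0327), the receptors of Cxcl12 and of leukotriene B4. By list, 1 of the 3 primary granule genes tested, 2 of 10 specific and gelatinase granule genes and 2 of 14 mature neutrophil genes fell, and 0 rose. With protein-coding genes rescaled as well, Cxcr4 alone of the 5 passed (-0.87, adjusted p = 0.0427 in limma), and Fpr1, a receptor of formylated peptides (1.78, adjusted p = 0.035), and Tlr4 (1.56, adjusted p = 0.00718) passed as higher on HFD. Cxcr4 and Itgam are also made by other leukocytes. Gfi1 was at 1.01 to 2.10 TPM in the 6 HFD libraries and at 1.39 to 6.22 in the 6 NCD libraries.

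The most abundant genes of each list showed no common order by diet. Hp, the haemoglobin-binding haptoglobin that hepatocytes also make, ranged from 122 to 257 TPM in WT-HFD and reached 603 in the library labelled Casp11-/- HFD replicate 2. Cybb, the catalytic chain of the phagocyte oxidase, ranged from 30.5 to 376 TPM in Casp11-/- NCD alone. Alox5ap, of leukotriene synthesis, was at 132, 32.5 and 201 TPM in that group and at 49.5 to 79.8 in WT-HFD. Prtn3, the primary granule proteinase 3, was at the floor in all 6 HFD libraries and in 2 of the 3 Casp11-/- NCD libraries.

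Of the signals that call neutrophils, Cxcl2 was the most abundant. Cxcl2 was at 46.8, 67.4 and 12.3 TPM in WT-NCD, at 11.5, 12.8 and 30.0 in WT-HFD, at 1.18, 23.8 and 11.6 in Casp11-/- NCD, and at 6.36, 117 and 86.3 in Casp11-/- HFD. Like S100a8, it was highest in the library labelled Casp11-/- HFD replicate 2, and WT-NCD replicates 1 and 2 lay above every WT-HFD library. Its second highest library was Casp11-/- HFD replicate 3, where S100a8 was at 131 TPM, below every WT-HFD library. Cxcl1 reached 6.64 and 6.50 TPM in the same libraries, its highest outside WT-NCD replicate 3 (13.9), and Cxcl5 and Csf3, the granulocyte growth factor, were at the floor in all libraries but WT-NCD replicate 3. The receptor gene Tlr4 was at 1.58 to 14.1 TPM, and Ager was at the floor in all 6 HFD libraries and in 3 of the 6 NCD libraries.

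Outside WT-NCD replicate 3, the summed markers of some other cells differed between the diets, while those of monocytes overlapped. The summed TPM of 8 Kupffer cell markers was 48.3 and 52.3 in WT-NCD replicates 1 and 2 and 209 to 631 in WT-HFD. It was 33.3 to 103 in Casp11-/- NCD and 205 to 334 in Casp11-/- HFD. The 8 markers of monocytes, which also make S100a8 and S100a9, summed to 660 and 1731 TPM in the other 2 WT-NCD libraries, 549 to 875 in WT-HFD, 373 to 1263 in Casp11-/- NCD and 421 to 724 in Casp11-/- HFD. In the library labelled Casp11-/- HFD replicate 2 their sum was 724 TPM, against 421 and 453 in replicates 1 and 3 of its group. None of the 8 was highest in that library, as 1.51% of the genes tested were, so this count says little. The 6 B cell markers summed to 1182 to 1312 TPM in those WT-NCD libraries and to 129.7 to 284 in WT-HFD. The 6 erythroid markers summed to 865 to 6115 TPM in those WT-NCD libraries, 279 to 764 in WT-HFD, 2451 to 18022 in Casp11-/- NCD and 413 to 640 in Casp11-/- HFD. Of 5 haematopoietic progenitor markers and 5 proliferation markers, 0 passed in the diet comparison over both genotypes without WT-NCD replicate 3. There 17.3% of 17950 genes were called lower, so a count of 0 among so few markers says little. The part of these cells in the values of the 10 genes was not tested.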

How the data were processed

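Total RNA of the liver immune cell fraction of 12 mice was sequenced, 3 in each of 4 groups. Stranded libraries were made from random-primed cDNA, and the authors aligned the reads with STAR to mm10 (GRCm38.p6 in the submitters' processing notes) and computed TPM. The deposited score values are these TPM on a linear scale. No value is under 1.01 TPM, a floor whose making is not given in the sources used here. They cover 40840 genes, and 6 rows without a gene name were left out. No read counts are given, so the depth and counting error of each value are unknown.

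Groups follow the sample titles. The labels number 3 samples a group, taken here as separate mice, and p-values measure only the spread between these samples. The test was limma (version 3.58.1, R 4.3.3) with log2(TPM + 1) as input, applied to 19498 genes that 3 or more libraries listed over the floor. The spread followed mean expression and was common to the 4 groups. All tests were two-sided, the Benjamini-Hochberg adjustment covered all tested genes, and a gene was called at an adjusted p under 0.05. With the pseudocount of 1, differences of low genes are understated. All results are given over 12 libraries and without WT-NCD replicate 3. Leaving out the library labelled Casp11-/- HFD replicate 2 as well was chosen after its values were seen.

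The members, the lists and the rule for named genes were chosen with earlier results of these data known. Named are the 10 members, Casp4, list genes with an adjusted p under 0.05, the 2 most abundant genes of each list, and the 5 genes of highest r with S100a8, S100a9 and Ngp. Cxcr2, Il1r2, Saa1 and Saa2 were named after their values were seen. Gene coordinates are from GENCODE vM21 (GRCm38) and promoter windows from RefSeq on GRCm38.p6, and all 10 members matched both. The fits were checked on simulated data. The alternatives were pseudocounts of 0.1 and 0.01, filters of 1 library and of every library, a spread from the compared groups, a block by replicate number, protein-coding genes alone set to one common sum, the highest 1% of genes removed, and each library left out in turn. Python 3.11.15, pandas 2.3.3, numpy 2.4.6 and matplotlib 3.10.9 were used.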

Additional observations from a re-analysis of the deposited data

How the results depend on the processing

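Each group had 2 or 3 libraries and the depth is unknown. The counts of 0 of 10 members called held in both genotype comparisons, in the interaction and in the diet comparison of mice labelled Casp11-/- under every alternative run. The filter of every library left 5 members to test, and removing the highest 1% of genes left 8. A spread from the compared groups gave no separate value for the interaction or for both genotypes together, where all groups are compared.

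For HFD against NCD in WT, the count over the libraries left out in turn ran from 0 to 2, with 2 without WT-NCD replicate 3, and it was 3 without both that library and the one labelled Casp11-/- HFD replicate 2. With protein-coding genes rescaled it was 0 over 12 libraries, 0 without WT-NCD replicate 3 and 0 without both, so the calls of Elane, Mpo and Mmp8 were lost. Over both genotypes it ran from 0 to 2 over the libraries left out in turn, with 2 without WT-NCD replicate 3 and 1 (Mpo) without Casp11-/- NCD replicate 2. It was 1 with protein-coding genes rescaled, 1 with that and WT-NCD replicate 3 left out, 7 without both libraries, and 2 with protein-coding genes rescaled and both libraries left out.

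Replicate numbers did not pair the samples: deviations from group means of libraries with the same number had r of -0.642 to 0.47. With the replicate block, 0 of 10 members passed in each of the 6 comparisons, and 0 of 19498 genes passed in WT and 16 over both genotypes.

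The direction of single members (log2 difference, HFD minus NCD) turned in WT for S100a8 with protein-coding genes rescaled (0.16), for S100a9 (0.18) and Ngp (0.68) with the highest 1% of genes removed, and for Camp with protein-coding genes rescaled and 1 or both libraries left out (0.30 in each). Over the libraries left out in turn, in WT, S100a8 ran from -1.41 to 0.56, Ngp from -1.33 to 0.036 and Retnlg from -1.70 to 0.047. In mice labelled Casp11-/-, S100a8 ran from -1.29 to 1.33, S100a9 from -0.92 to 1.77, Retnlg from -1.78 to 0.93, Ly6g from -0.62 to 0.94 and Mmp8 from -1.60 to 1.10. There Retnlg was 0.49 with protein-coding genes rescaled, with or without WT-NCD replicate 3, and Mmp8 was -0.039 and -0.057 with pseudocounts of 0.1 and 0.01. Without both libraries the values were -1.29 for S100a8, -0.92 for S100a9, -0.62 for Ly6g and -1.60 for Mmp8, and with protein-coding genes rescaled as well they were -0.67, -0.33, -0.30 and -1.20. Over both genotypes, S100a8 ran from -0.73 to 0.58, S100a9 from -1.02 to 0.32 and Retnlg from -1.18 to 0.18 over the libraries left out in turn, and S100a8 was -1.35 without both libraries and -0.66 with rescaling too. S100a9 was 0.16 and Retnlg 0.11 with protein-coding genes rescaled. With WT-NCD replicate 3 left out too, S100a9 was 0.11, Camp 0.037 and Ly6g 0.42, and Camp was 0.018 with both libraries left out. With the highest 1% of genes removed, S100a9 was 0.70, Ly6g 0.36 and Mmp8 0.18. The causes of these changes were not tested.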
